A study of Mus musculus with 18 samples.

Results

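Peaks on pseudogenes were examined in RNase-protection data from mouse liver, in which 3718 of the 82353 peaks of 18 libraries (4.51%) qualified. A peak qualified when it overlapped, by at least 10 bp and on either strand, a gene that GENCODE M21 types as a pseudogene, and touched no exon of a protein-coding gene on its own strand. Of the 3718 peaks, 3614 lay on the strand of the pseudogene (sense) and 104 on the opposite strand only (antisense). They fell on 850 of the 13525 annotated pseudogenes, 828 with sense peaks, 35 with antisense peaks and 13 with both. Among the 3614 sense peaks, 15 were also antisense to another pseudogene. The members nearest to the limit overlapped by 10 bp, 12 members overlapped by less than 20 bp, and 4 peaks missed the limit.

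The libraries were made from total liver RNA of mice aged 8 to 9 days. The editing-deficient mice (Adar-/-; Mavs-/-) lack ADAR1, the enzyme that turns adenosine into inosine in double-stranded RNA, and also lack MAVS, the adaptor through which the RNA sensor MDA5 signals. The Mavs-/- mice, titled wild-type by the submitters, lack MAVS too, so every animal was MAVS-deficient and no group had both genes intact. Each genotype had 3 replicates of each of 3 fractions: RNA digested with RNase A/T1 after incubation with MDA5ΔCARD, a recombinant MDA5 without its signalling domains (MDA5-protected), RNA digested without the protein (RNase-only), and undigested RNA (input). Binding therefore took place in the tube, on purified RNA of the whole liver. All 12 hepatocyte markers looked up (Alb, Apoa1, Ttr and others) had an exonic input peak in each of the 6 input libraries. Of 6 erythroid markers 5, 5 and 4 had one in the Adar-/-; Mavs-/- input libraries and 6 in each Mavs-/- one. Of 5 Kupffer cell markers 4 had one in every input library. Of 4 sinusoidal endothelial markers 4, 3 and 4 had one in Adar-/-; Mavs-/- and 0, 2 and 3 in Mavs-/-. Cell content was not tested between genotypes.

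The peak lists held 1180 to 2868 peaks in the MDA5-protected, 3150 to 6094 in the RNase-only and 4326 to 8948 in the input libraries. Read counts are not part of the lists, so read depth, which differed between fractions in the study, was not used here. Peaks of digested libraries were called against input as control, which input lists cannot have, so a comparison of a digested fraction with input also compares different ways of calling. Some libraries stood apart, each in a different measure, and are named where it matters. They were Adar-/-; Mavs-/- RNase-only replicate 1, Mavs-/- RNase-only replicate 1 and Mavs-/- RNase-only replicate 3. The last had the fewest peaks and the lowest sense share of its fraction.

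Pseudogenes are copies of genes that no longer encode the parent protein. Processed pseudogenes arose from a reverse-transcribed mRNA, so they lack the introns of the parent and resemble its mature transcript. Unprocessed pseudogenes arose by duplication of a gene and keep its introns, and in liver they often lie within clusters of expressed relatives such as the cytochrome P450 genes. MDA5 forms filaments on long double-stranded RNA, which a transcript can form by folding on an inverted repeat or by pairing with an antisense transcript.

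The sequences below show the 3 situations on which the results turn, with coordinates on GRCm38 and bases taken from the GENCODE transcripts. The first is Gm12896 (chr4:122122847-122123072, a processed pseudogene annotated on the plus strand), here written 5′ to 3′ on the minus strand, on which its antisense peaks lie. In the first line capitals mark the bases of the pseudogene under the strong peak of all 6 MDA5-protected libraries, and in the second those under the peak of Adar-/-; Mavs-/- RNase-only replicate 3.
Gm12896 MDA5-protected: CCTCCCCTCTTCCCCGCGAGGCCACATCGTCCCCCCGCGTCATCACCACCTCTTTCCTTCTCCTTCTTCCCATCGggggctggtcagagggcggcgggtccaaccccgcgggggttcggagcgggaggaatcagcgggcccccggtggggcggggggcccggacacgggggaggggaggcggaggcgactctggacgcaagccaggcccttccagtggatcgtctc
Gm12896 RNase-only: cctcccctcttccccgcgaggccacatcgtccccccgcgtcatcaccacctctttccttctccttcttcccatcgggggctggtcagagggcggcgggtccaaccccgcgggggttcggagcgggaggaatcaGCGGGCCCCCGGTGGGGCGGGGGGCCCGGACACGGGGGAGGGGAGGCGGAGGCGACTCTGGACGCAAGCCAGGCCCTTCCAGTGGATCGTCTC

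The second is Gm19220 (chr12:40893661-40893815, plus strand, within its single exon), in which a sense region of 75 nt had a peak in all 6 MDA5-protected libraries. Capitals mark that region, of which 59 bases are C, 33 of them in an unbroken run.
Gm19220: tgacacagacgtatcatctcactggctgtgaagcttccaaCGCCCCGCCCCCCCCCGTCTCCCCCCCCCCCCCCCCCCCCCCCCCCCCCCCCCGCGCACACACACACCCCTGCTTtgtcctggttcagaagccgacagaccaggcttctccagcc

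The third is how near the pseudogenes seen in input are to their parents. Stretches of 100 nt are shown for Gm10288 (chr3:146839213-146839312, minus strand) beside Rpl11, and for Gm15459 (chr5:5782958-5783057, minus strand) beside Hspa8, with the base that differs in capitals.
Gm10288: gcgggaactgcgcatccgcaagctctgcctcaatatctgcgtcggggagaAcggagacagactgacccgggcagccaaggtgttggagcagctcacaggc
Rpl11: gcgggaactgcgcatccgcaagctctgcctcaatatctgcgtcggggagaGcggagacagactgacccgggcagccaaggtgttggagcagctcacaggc
Gm15459: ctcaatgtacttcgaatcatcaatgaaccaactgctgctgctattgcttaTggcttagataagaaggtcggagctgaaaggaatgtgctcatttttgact
Hspa8: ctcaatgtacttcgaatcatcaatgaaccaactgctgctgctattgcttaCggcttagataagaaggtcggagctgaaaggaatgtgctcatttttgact
Over the whole alignment Gm10288 differed from Rpl11 at 1 of 537 positions and Gm15459 from Hspa8 at 5 of 1941, in both cases without gaps.

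Sense peaks on pseudogenes were most frequent in input. They made up 6.48%, 6.04% and 6.30% of the peaks in the Adar-/-; Mavs-/- input libraries and 6.20%, 7.70% and 6.82% in the Mavs-/- ones. In RNase-only the shares were 2.31%, 2.46% and 2.19% for Adar-/-; Mavs-/- and 3.79%, 3.40% and 1.52% for Mavs-/-. In MDA5-protected they were 1.59%, 1.52% and 1.26%, and 1.59%, 1.39% and 1.44%. Every input library thus lay above every digested one, whereas the RNase-only and MDA5-protected libraries overlapped through Mavs-/- RNase-only replicate 3. The share was lower in MDA5-protected than in input, with a difference of -5.13 percentage points (1.46% ± 0.13 against 6.59% ± 0.60, SD, n = 6, exact permutation test with fractions exchanged within genotype, two-sided p = 0.005, the smallest this design can give, adjusted p = 0.0075 over 15 tests). RNase-only, at 2.61% ± 0.83, was lower than input as well (difference -3.98 points, same exact test, p = 0.005, adjusted p = 0.0075).

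The step from RNase-only to MDA5-protected was less firm. The MDA5-protected share was lower (difference -1.15 points, exact permutation test without pairing of libraries, p = 0.01, adjusted p = 0.0125). With lists cut to equal numbers of the strongest peaks the difference shrank to -0.21 points (exact permutation p = 0.5), and among peaks with an area of at least 1000 it turned to 0.65 points in favour of MDA5-protected (exact permutation p = 0.065).

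**Figure D1:**
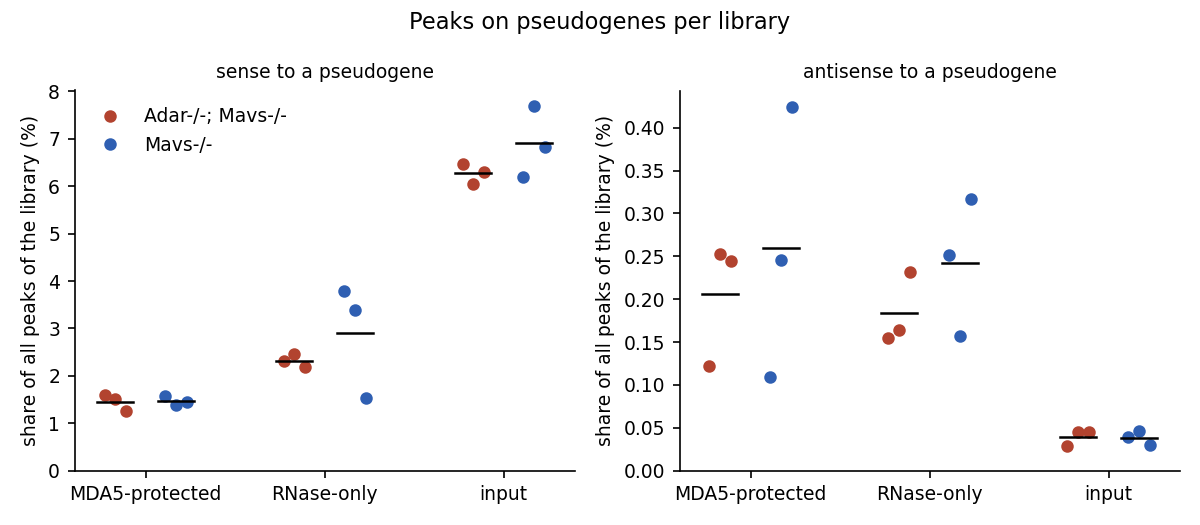
Share of all peaks of each library (vertical axis, %) that lie sense (left) or antisense (right) to a pseudogene, by fraction, with 1 point per library, colours for the genotypes and bars for the means of 3. Sense shares lie between 6.04% and 7.70% in input and at 3.79% or lower in the digested fractions, and antisense shares are lowest in input.

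By area the sense peaks were likewise highest in input. They held 0.394%, 0.512% and 0.445% of the area in the Adar-/-; Mavs-/- and 0.637%, 0.373% and 0.499% in the Mavs-/- MDA5-protected libraries, 1.09%, 1.00% and 1.08%, and 2.11%, 1.84% and 0.612% in RNase-only, and 5.89% to 7.51% in input. Area is the deposited signal of a peak, the area under its significance curve, and was read only within a library. Input was again above every digested library (differences from input of -6.27 points for MDA5-protected and -5.46 points for RNase-only, exact permutation p = 0.005 for both). The difference between MDA5-protected and RNase-only, -0.81 points (exact permutation p = 0.01, adjusted p = 0.0125), fell to -0.27 points with equal numbers of peaks (exact permutation p = 0.16). A large part of the total area of the MDA5-protected libraries lay in an antisense peak on Gm12896. With Gm12896 and its copy Gm12895 taken out of the peaks and of the total, the MDA5-protected shares became 0.755%, 0.978% and 1.00% in Adar-/-; Mavs-/- and 0.810%, 0.396% and 0.359% in Mavs-/-, which turned the order of the genotype means (difference 0.39 points, exact permutation p = 0.2). The difference between MDA5-protected and RNase-only was then -0.61 points (exact permutation p = 0.01).

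Genotypes could not be separated by these shares. The means of the sense share were 1.45% and 1.47% in MDA5-protected, 2.32% and 2.90% in RNase-only, and 6.28% and 6.91% in input for Adar-/-; Mavs-/- and Mavs-/-, respectively, and the libraries overlapped in each fraction (two-sided exact permutation tests of 3 against 3, p = 1, 0.4 and 0.3). This design cannot give a p under 0.1. Over the 12 tests between genotypes the only groups that did not overlap were the antisense shares of area in input (0.128% against 0.204%, exact permutation p = 0.1, adjusted p = 0.96). The step between fractions did not differ detectably between genotypes either (12 exact permutation tests of the difference of differences, lowest p = 0.265, adjusted p = 0.9).

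What the sense peaks lay on differed more between fractions than how many there were. In input 94.6% to 96.7% of them were on processed pseudogenes, in RNase-only 62.6% to 85.1%, and in MDA5-protected 11.5% to 35.3%. Unprocessed pseudogenes held 64.7% to 88.5% of the sense peaks in the MDA5-protected libraries against 2.84% to 4.79% in input. Exons of the pseudogene were touched by 98.4% to 99.3% of the sense peaks in input, by 63.4% to 87.3% in RNase-only and by 7.69% to 25.0% in MDA5-protected. None of these ranges overlapped between input and MDA5-protected, and they are given as a description without a test. The exonic share of all peaks of a library was not counted, so whether its fall is particular to pseudogenes cannot be said. In each of the 6 MDA5-protected libraries the median sense peak was longer than the median of all its peaks, at 163 to 247 nt against 128.5 to 216 nt. Sense peaks were also spread over fewer pseudogenes after MDA5 protection, with 167 peaks on 24 pseudogenes, against 796 on 373 in RNase-only and 2651 on 619 in input. The shares above count peaks, and 1 pseudogene can hold several. Counted by pseudogene, 14 of the 24 were processed and 8 unprocessed in MDA5-protected. In RNase-only 343 of 373 were processed, and in input 598 of 619.

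**Figure D2:**
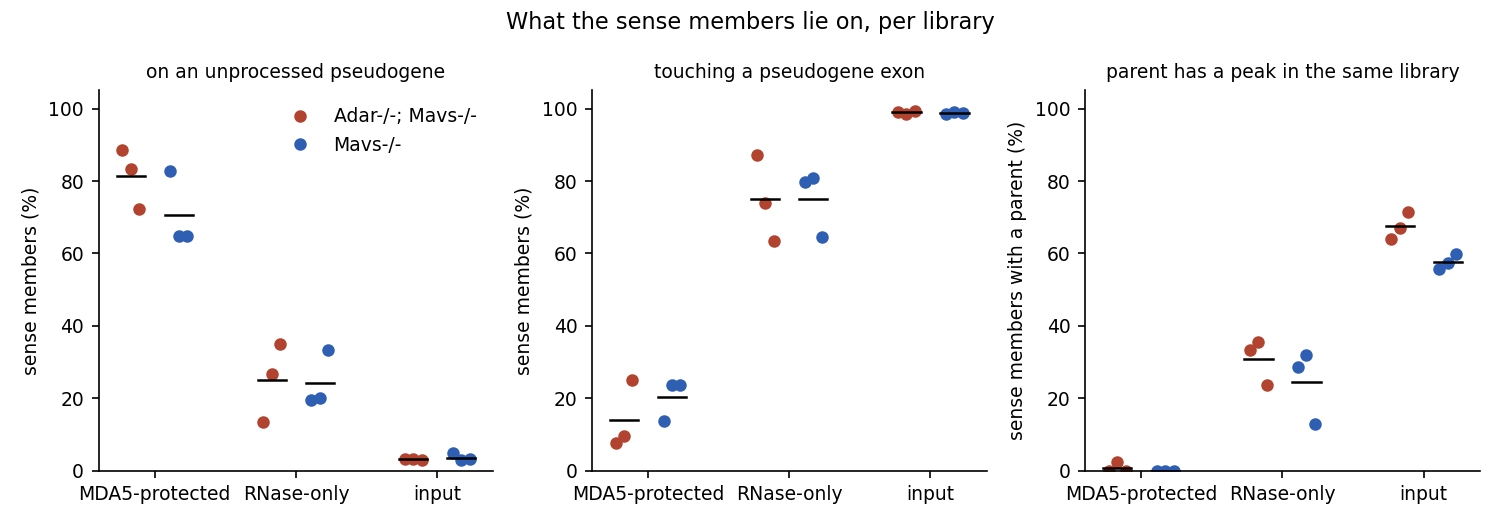
Composition of the sense peaks of each library (vertical axes, %): on an unprocessed pseudogene, touching an annotated pseudogene exon, and with a peak on an exon of the parent gene in the same library, by fraction. Points are libraries, colours genotypes and bars means of 3, and MDA5-protected lies at the opposite end from input in all 3 panels.

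Most MDA5-protected sense peaks came from introns of 6 pseudogenes in liver gene clusters. Of the 167 peaks, 126 lay on Cfhr3, Gm16332 and Gm5834, which follow each other on the minus strand of chromosome 1, on Cyp2d36-ps and Cyp2d38-ps on chromosome 15, or on Cyp3a63-ps on chromosome 5, and 0 of the 126 touched an annotated exon. They made up 64.7% to 84.6% of the sense peaks per MDA5-protected library. In the RNase-only libraries the same 6 pseudogenes had 136 peaks, also none exonic, which was 2.24% of the sense peaks in Adar-/-; Mavs-/- replicate 1 and 15.2% to 31.2% in the other 5 libraries. In input they had 15 peaks, 10 of them exonic. Intronic peaks in these clusters were thus found in both digested fractions. Of all MDA5-protected sense peaks, 80.8% overlapped a peak of an RNase-only library of the same genotype. The share over all MDA5-protected peaks was not counted, so whether this is particular to pseudogenes cannot be said.

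The 3 pseudogenes on chromosome 1 held 71 of the 126 peaks. Cfhr3 (chr1:139584783-139660899) had 6, 7 and 10 sense peaks in the Adar-/-; Mavs-/- and 5, 2 and 2 in the Mavs-/- MDA5-protected libraries. Gm5834 (chr1:139939601-139994205), whose exons were 94.1% identical to Gm4788, had 9, 10 and 3 peaks and 5, 2 and 1. For Cfhr3 every Adar-/-; Mavs-/- count was above every Mavs-/- count, whereas the genotypes overlapped for Gm5834. The whole peak lists held 1636, 2768 and 2868 peaks in these Adar-/-; Mavs-/- and 1829, 1220 and 1180 in these Mavs-/- libraries, and the part of list length in the counts was not tested. In RNase-only, Cfhr3 had 1, 9 and 20 peaks in Adar-/-; Mavs-/- and 11, 9 and 5 in Mavs-/-, and it had no peak in input. The longest MDA5-protected sense peak was 993 nt, on Gm5834 in Adar-/-; Mavs-/- replicate 3, and one of 896 nt lay there in Mavs-/- replicate 1.

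Gm16332 (chr1:139862957-139936477) was the sole pseudogene with sense peaks in all 6 MDA5-protected libraries and in no RNase-only library. How many regions outside pseudogenes met such a rule was not counted. In input, Gm16332 had sense peaks in 2 Adar-/-; Mavs-/- and 3 Mavs-/- libraries. Its recurrent region, chr1:139897791-139898223 in an intron, had a peak of 361, 399 and 383 nt in the Adar-/-; Mavs-/- libraries and of 242, 377 and 288 nt in the Mavs-/- libraries. These peaks held 0.0107%, 0.0240%, 0.0136%, 0.0128%, 0.0134% and 0.00824% of the area of their libraries.

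The cytochrome P450 pseudogenes derive from enzymes that oxidise drugs and steroids. Cyp2d36-ps (chr15:82671288-82683257) had 3, 7 and 6 sense peaks in the Adar-/-; Mavs-/- and 10, 1 and 3 in the Mavs-/- MDA5-protected libraries, and 1, 7, 5 and 10, 5, 6 in RNase-only. Its region of 1003 nt at chr15:82672060-82673062 was covered in all 6 MDA5-protected libraries, and a peak of 904 nt was the second longest MDA5-protected sense peak. Cyp2d38-ps (chr15:82693571-82707353) had 1 to 4 and Cyp3a63-ps (chr5:145624092-145633993) 1 or 2 peaks in each MDA5-protected library. As a family, pseudogenes of cytochrome P450 and conjugating enzymes took a median of 32.9% of the sense peaks per MDA5-protected library (23.1% to 44.8%), against 6.33% (1.49% to 18.8%) in RNase-only and 1.02% (0.709% to 2.24%) in input.

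**Figure D3:**
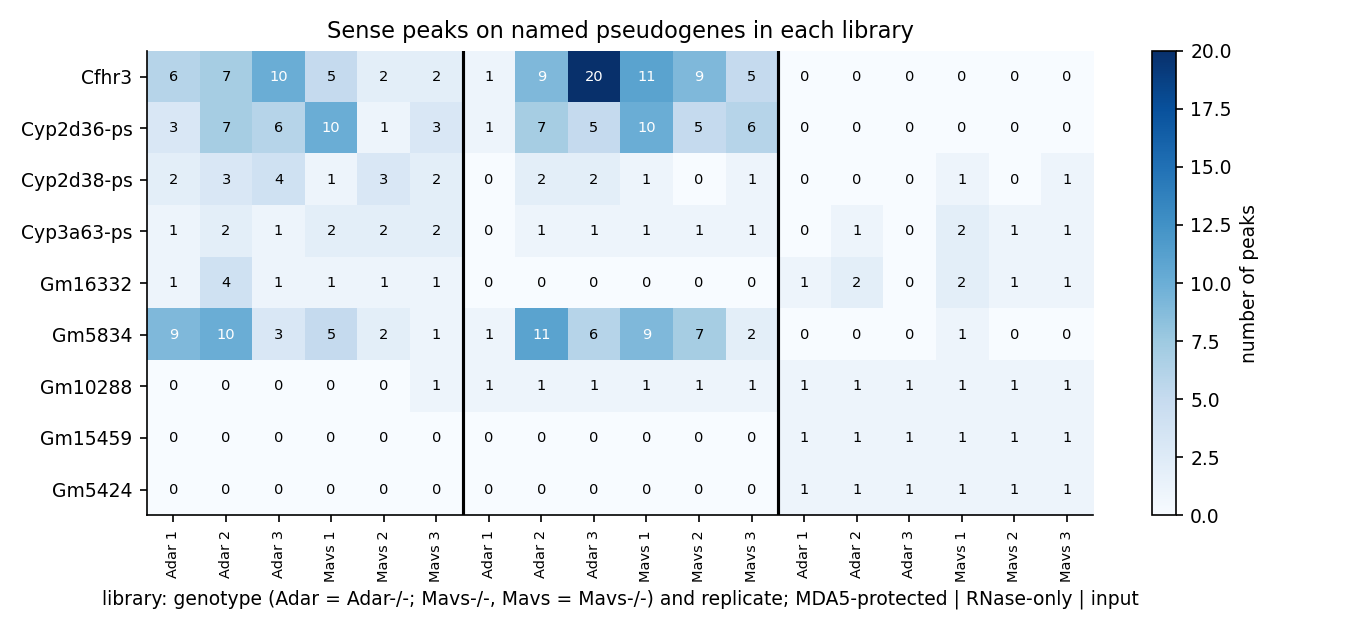
Number of sense peaks (colour and figure in each cell) on the named pseudogenes in each of the 18 libraries, with MDA5-protected, RNase-only and input from left to right. The 6 upper, unprocessed pseudogenes have 1 to 10 peaks in every MDA5-protected library, and Gm15459 and Gm5424 have 1 peak in every input library and none elsewhere.

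Regions seen in all libraries of 1 genotype and none of the other were few on pseudogenes. Regions are peaks of a fraction merged where they overlap on a strand. In the MDA5-protected libraries 1 of 57 sense regions, on Cfhr3, had a peak in all 3 Adar-/-; Mavs-/- and no Mavs-/- library, beside 2.96% of all 4770 regions. Another 1 of the 57, on Gm12896, showed the reverse, beside 0.818% of all regions. With equal numbers of peaks the region on Cfhr3 was no longer among them, and the counts were 1 of 36, on Gm5834, and 2 of 36, on Gm12896 and Gm19220, beside 1.80% and 1.84% of all regions. In RNase-only the counts were 3 and 1 of 453 sense regions, beside 1.73% and 0.288% of all regions. In input they were 25 and 1 of 714, beside 5.4% and 0.865%. With equal numbers of peaks these became 4 and 5 of 480, beside 2.97% and 3.11%, so the excess in Adar-/-; Mavs-/- was not kept. None of the 12, 31 and 5 antisense regions of the 3 fractions met the rule in either direction. By contrast, 7 of the 57 MDA5-protected sense regions had a peak in all 6 libraries, beside 6.79% of all regions.

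Outside the gene clusters, Gm19220 and Gm5763 were the only other pseudogenes among those 7 regions, and Gm5763 and the sense values of Gm19220 are named after their values were seen. Gm19220 (chr12:40893485-40894287) matched Naa10, the catalytic subunit of an N-terminal acetyltransferase, at 75.3% over its aligned part. Its sense peaks over the C run shown above were 68 to 74 nt long and held 0.00543% to 0.00954% of the area, and antisense peaks over the same bases appeared in 1 MDA5-protected library of each genotype and in 3 RNase-only libraries. Sense peaks were also called there in 3 RNase-only libraries. Gm5763 (chrX:142631483-142634015) matched Rgs3, a regulator of G protein signalling, at 99.8%. The peak was in an annotated intron and held 0.0212% to 0.0319% of the area in the MDA5-protected libraries, against 0.00424% to 0.00986% in the RNase-only libraries, so that the fractions did not overlap.

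In input the peaks lay on exons of processed copies. The largest sense areas belonged to Gm15459, whose parent Hspa8 encodes a constitutive cytosolic chaperone, and to Gm5424, whose parent Ass1 encodes an enzyme of the urea cycle. Gm15459 (chr5:5781615-5783555) held 0.135%, 0.109% and 0.136% of the area in the Adar-/-; Mavs-/- and 0.110%, 0.158% and 0.112% in the Mavs-/- libraries. Gm5424 (chr10:62071123-62072362), 99.5% identical to Ass1, held 0.118%, 0.117% and 0.158%, and 0.104%, 0.161% and 0.0879%. The genotypes overlapped for both, and neither had a peak in a digested library. Gm10288 (chr3:146838811-146839347), a copy of the ribosomal protein gene Rpl11, had 1 peak in each input and RNase-only library but in only 1 MDA5-protected library, Mavs-/- replicate 3. Its peaks in the digested libraries were 88 to 226 nt long and all began at the same base beyond the annotated 3′ end, whereas its input peaks were 231 to 462 nt long and lay within the pseudogene.

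The pseudogenes seen in input were also grouped by the family of their parent, with 235 of 619 in none of the families listed. Copies of cytosolic ribosomal protein genes made up 213 of 619 pseudogenes (34.4%, exact 95% interval 30.7% to 38.3%, counting error only) and a median of 36.2% of sense peaks per library (34.8% to 40.2%). Translation factors followed with 6.84% of sense peaks (5.97% to 7.99%) and glycolytic enzymes with 6.02% (5.43% to 7.51%). The parents with the most pseudogenes were Gapdh with 14, Eef1a1 with 12, Rpl7a with 10 and Rps2 with 9. In RNase-only the ribosomal protein copies were 127 of 373 pseudogenes (34.0%, interval 29.2% to 39.1%) and 29.7% of sense peaks (20.3% to 33.3%), every library lying below every input library by peaks. In MDA5-protected, 4 of 24 pseudogenes (16.7%, interval 4.74% to 37.4%) and 4.50% of sense peaks (0% to 11.8%) belonged to this family, and no peak to glycolytic enzymes.

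Peaks of the parents and sequence shared with them were compared as well. An exonic peak of the parent gene was present in the same library for 55.6% to 71.5% of the input sense peaks with a parent, 12.8% to 35.6% in RNase-only and 0% to 2.44% in MDA5-protected. The peak lists also differed in length between fractions. How many of all protein-coding genes had an exonic peak was not counted, so whether this is particular to the parents cannot be said. The median identity of processed pseudogenes to their parent was 98.6% to 98.9% in the input libraries. It was 97.2% to 98.8% in RNase-only and 90.2% to 99.8% in MDA5-protected, so both overlapped with input. The MDA5-protected medians rest on 3 to 8 sense peaks per library. A read of 75 nt cannot be told apart from the parent mRNA where the window is the same in both. Of the 598 processed pseudogenes with an input sense peak, 92.3% had at least 1 window of 75 nt that also occurs in a protein-coding transcript, with a median of 36.1% of windows per pseudogene. For the 343 of RNase-only the values were 79.6% and 26.7%, and for the 14 of MDA5-protected 57.1% and 5.69%. Pseudogenes with at least 50% of their windows in a protein-coding transcript made up 36.3% in input, 29.7% in RNase-only and 35.7% in MDA5-protected. By this measure input did not stand out from MDA5-protected. Among the 9442 processed pseudogenes without any peak 24.9% had at least 1 shared window and 3.72% at least 50%. The part of such reads in the peaks was not tested.

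Antisense peaks were rare by number, with 26 in MDA5-protected, 62 in RNase-only and 16 in input. They made up 0.233% ± 0.114, 0.213% ± 0.066 and 0.0391% ± 0.0078 of the peaks per library, respectively (SD, n = 6). The digested fractions did not overlap with input (exact permutation test, p = 0.005 for both, adjusted p = 0.0075). For MDA5-protected against input this no longer passed with equal numbers of the strongest peaks (difference 0.0706 points, exact permutation p = 0.38). MDA5-protected and RNase-only could not be told apart (difference 0.0202 points, exact permutation p = 0.72). Among the peaks on pseudogenes, the sense strand held 86.4% ± 6.1 in MDA5-protected, 91.7% ± 4.7 in RNase-only and 99.4% ± 0.1 in input (SD, n = 6), the digested fractions again not overlapping with input (exact permutation p = 0.005 for both) and MDA5-protected and RNase-only overlapping. The difference between the latter, -5.32 points, did not pass without pairing (exact permutation p = 0.145), but passed with same-numbered libraries paired (exact sign-flip permutation p = 0.03125) and with exons only (-29.0 points, exact permutation p = 0.01). It turned to 0.70 points with equal numbers of peaks (exact permutation p = 0.88). The value with exons only rests on few peaks, as 27 sense and 15 antisense MDA5-protected peaks touched a pseudogene exon. The antisense ones include those on Gm12896.

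By area, antisense peaks on 1 pseudogene outweighed all others. Antisense peaks held 47.9%, 47.6% and 55.7% of the library area in Adar-/-; Mavs-/- and 51.6%, 54.5% and 48.2% in Mavs-/- MDA5-protected libraries. They held 7.86%, 30.0% and 12.9%, and 0.143%, 20.3% and 14.4% in RNase-only, and 0.125% to 0.233% in input. Every MDA5-protected library was above every RNase-only and input library. The share in MDA5-protected was higher by 36.6 points than in RNase-only and by 50.8 points than in input (exact permutation tests, p = 0.005 and 0.005, adjusted p = 0.0075 for both). RNase-only was higher than input by 14.1 points (exact permutation p = 0.02, adjusted p = 0.0231), with Mavs-/- RNase-only replicate 1 inside the range of input. In the MDA5-protected libraries and in 5 of the RNase-only libraries nearly all of this area came from Gm12896. In Mavs-/- RNase-only replicate 1 Gm12896 held 0.0237%, and in input its copy Gm12895 added 0.0353% to 0.0760%. Without Gm12896 and Gm12895 the antisense peaks held at most 0.0494% of the area in any MDA5-protected and at most 0.135% in any RNase-only library. The order of the fractions then turned, with a difference of -0.0604 points between MDA5-protected and RNase-only (exact permutation p = 0.005), or of -0.0487 points where the pair was also taken out of the total area (exact permutation p = 0.1). This omission was chosen after the data were seen.

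**Figure D4:**
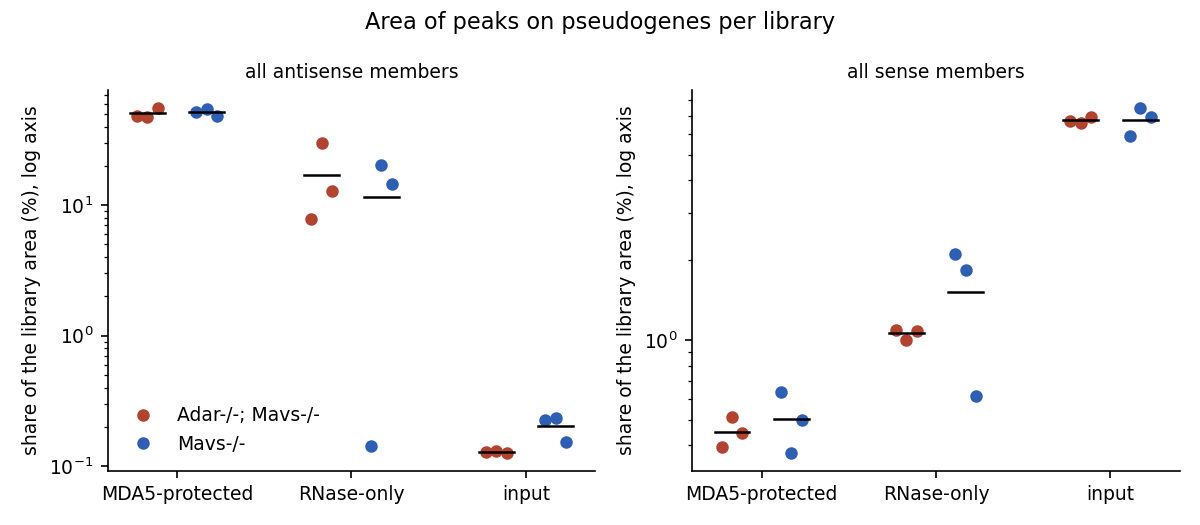
Share of the area of all peaks of a library (vertical axis, %, log scale) held by antisense (left) and sense (right) peaks on pseudogenes, by fraction. Points are libraries, colours genotypes and bars means of 3, and the antisense panel shows 47.6% to 55.7% in MDA5-protected against at most 0.233% in input.

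Gm12896 is a single-exon pseudogene of 226 bp. No parent was found for it: among 141767 annotated transcripts, 356 ribosomal RNA genes included, its sequence matched 1 other gene, Gm12895 on the same chromosome (chr4:122455210-122455435), without a mismatch over 224 nt. Reads of the pair cannot be assigned to either copy over that stretch. Neither the complete 45S ribosomal RNA precursor nor the main RNA of the large ribosomal subunit was available for comparison. The 356 ribosomal RNA genes searched do not stand in for them. The search therefore could not find a match to these RNAs, and a ribosomal RNA origin of Gm12896 was not tested. The pseudogene has a GC content of 72.1%.

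The antisense peak on Gm12896 was the largest peak of each of the 6 MDA5-protected libraries. It ran over chr4:122122998-122123094 on the minus strand in 5 of them and ended at 122123082 in Mavs-/- replicate 3. It held 47.9%, 47.6% and 55.7% of the area in Adar-/-; Mavs-/- and 51.6%, 54.4% and 44.7% in Mavs-/-, and the genotypes overlapped. Mavs-/- replicate 3 also had an antisense peak of 91 nt at the other end, with 3.46% of the area. The RNase-only peaks were placed differently. In Adar-/-; Mavs-/- replicate 3 and in Mavs-/- replicates 2 and 3 the main peak covered the other end of the pseudogene, from bases -1 to 93, -1 to 86 and 1 to 91 counted from its annotated start as base 1, with 12.8%, 16.8% and 14.3% of the area. In Adar-/-; Mavs-/- replicate 2 it ran from base 0 to 155 with 30.0% of the area. Of the other RNase-only peaks, that of Adar-/-; Mavs-/- replicate 1 (7.78%) and a second one of Mavs-/- replicate 2 (3.46%) lay on the MDA5-protected end, and Mavs-/- replicate 1 had just 19 nt with 0.0237%. In input both strands were covered over nearly the whole length, at 0.0782% to 0.159% of the area antisense.

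**Figure D5:**
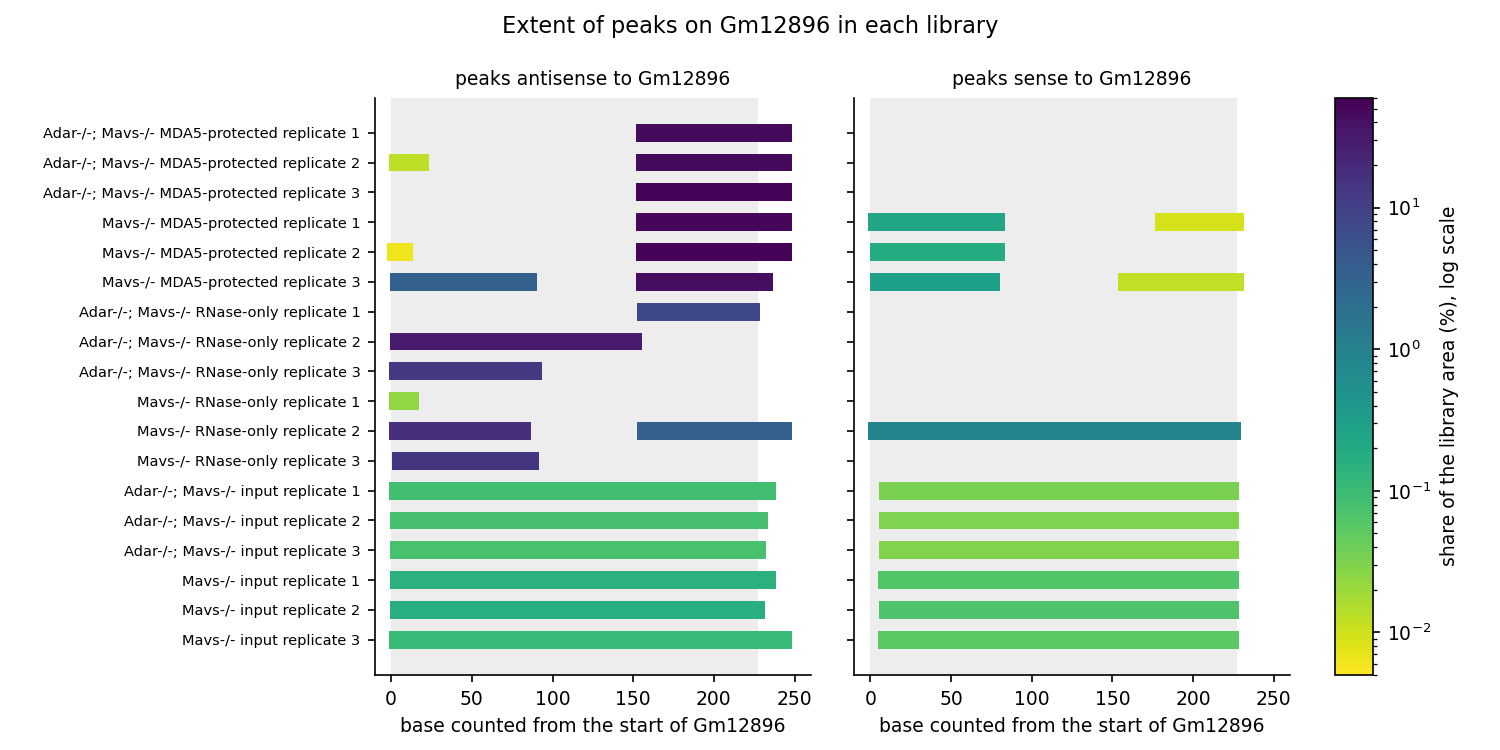
Extent of each peak antisense (left) and sense (right) to Gm12896 in the 18 libraries, counted in bases from the annotated start of the pseudogene on the plus strand, with its 226 bp shaded and colour for the share of the library area (%, log scale). All 6 MDA5-protected libraries have the same antisense peak at one end, RNase-only peaks lie mostly at the other, and input peaks cover both.

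Sense peaks on Gm12896 divided the genotypes in the MDA5-protected fraction. They held 0.247%, 0.193% and 0.314% of the area in the 3 Mavs-/- libraries, and no Adar-/-; Mavs-/- library had one. In the Mavs-/- libraries the main sense peak was 85, 84 and 81 nt long and lay on the end opposite to the antisense peak. In RNase-only, 1 library had a sense peak, Mavs-/- replicate 2, with 0.829% of the area. All 6 input libraries had one, with 0.0328%, 0.0307% and 0.0293% of the area in Adar-/-; Mavs-/- and 0.0645%, 0.0685% and 0.0544% in Mavs-/-. Every Mavs-/- input library was thus also above every Adar-/-; Mavs-/- one, and the part of this in the MDA5-protected peaks was not tested.

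The remaining antisense peaks were small and recurred in few libraries. Gm5206 had an antisense peak of 59 to 76 nt in 3 MDA5-protected and 4 RNase-only libraries, ending at the same base in all 7, and its parent Gid8 belongs to a ubiquitin ligase. Gm15645 had 7 antisense peaks of 228 to 505 nt in 5 RNase-only libraries and none in the other fractions, and its parent Odc1 encodes the first enzyme of polyamine synthesis. Gm4596, a copy of the ubiquitin-conjugating enzyme gene Ube2d3, had the longest antisense peak of the MDA5-protected fraction, 248 nt in Adar-/-; Mavs-/- replicate 2. Cyp2d38-ps had antisense peaks of 140 and 165 nt in 2 Adar-/-; Mavs-/- MDA5-protected libraries, in an intron, and no Mavs-/- MDA5-protected library had one. In RNase-only it had such a peak in 2 Adar-/-; Mavs-/- libraries and in 1 Mavs-/- library. A peak on the opposite strand overlapped 0 to 4 of the sense peaks in each MDA5-protected library.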

How the data were processed

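Peaks of 18 libraries were analysed, with groups taken from the genotype and fraction labels. Per the labels and the paper, the authors used Trim Galore 0.6.6 on reads of 75 bp, NextGenMap for alignment (build GRCm38) and Genrich 0.6.1 to call peaks on each strand of each library, digested libraries against input, and removed blacklisted and ribosomal RNA repeats. The deposited signal is the area under the significance curve, which grows with depth and was used only as a share within a library. The deposited −log10 adjusted p-values were not tested further. Start positions count from 1.

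The members and lists were chosen with earlier results of these data known. Parents came from names of the form X-ps (157 pseudogenes) or from the best blastn hit to protein-coding transcripts (685, e-value at most 1e-10), and 8 had none. Exonic sequence came from the GENCODE M21 transcripts. Named pseudogenes were those in the most libraries, with all-or-none genotype patterns, in MDA5-protected but not RNase-only, with the longest peaks or with the largest area per group. Shares were compared by two-sided exact permutation tests with Benjamini-Hochberg adjustment over 12 tests between genotypes and 15 between fractions. Their p-values measure the spread between libraries. These were 3 against 3 between genotypes, and 6 against 6 between fractions, exchanged within genotype. Same-numbered MDA5-protected and RNase-only libraries deviated together (r = 0.122 to 0.201, all 6 pairs over 0.1), whereas the other comparisons met this in some pairs or none. The p-values and adjusted p-values for MDA5-protected against RNase-only were nevertheless computed without this pairing, save where pairing is named. The paired exact sign-flip test, which cannot give p under 0.03125, was run as an alternative. Regions were overlapping same-strand peaks merged within a fraction. The assignment rule recovered 700 of 700 peaks on simulated data. Alternatives were another overlap, exons only, an area of 1000, other exon definitions, equal peak numbers, omission of each replicate and a replicate block, and later the omission of the Gm12896 pair and counting each pseudogene once. Software was BLAST 2.17.0, scipy 1.17.1, Python 3.11.15, matplotlib 3.10.9 and numpy 2.4.6. Repeats were not analysed here. The parent of 1 named pseudogene is not reported here.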

Additional observations from a re-analysis of the deposited data

How the results depend on the processing

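Leaving the pair Gm12896 and Gm12895 out, and counting each pseudogene once, were chosen after the data were seen. All values are differences in percentage points unless named otherwise, genotypes as Adar-/-; Mavs-/- minus Mavs-/-, and where a cause is not plain from the alternative it was not tested. Of 531 recomputed values, 463 were labelled unchanged. For tests this meant the same direction and the same side of the threshold of 0.05. Tests between genotypes could lose this label only by a change of direction. Counts of regions and shares of families had to stay close to the main value instead, without a test. No difference between genotypes could have a p under 0.1, and the sign of several turned. With equal numbers of peaks the genotype differences became 0.198 (sense peaks, MDA5-protected), 0.324 (sense peaks, input), 0.411 (sense area, input) and 2.36 (antisense area, MDA5-protected). With a minimum area of 1000 they became -0.0388 (antisense peaks, input), 0.485 (sense area, input) and 1.95 (antisense area, MDA5-protected). The antisense peaks of input gave -0.00669 with an overlap of 50% of the peak, -0.00293 with exons only and -0.00296 without peaks in a protein-coding gene. Without the pair the MDA5-protected differences were 0.101 (sense peaks), 0.0200 (antisense peaks), 0.199 (sense area, or 0.391 with the pair also out of the total) and 0.0166 (antisense area, or 0.0359). The antisense area then gave -0.0226 (or -0.0187) in RNase-only and 0.00806 (or 0.00807) in input, and the sense area of input 0.00774.

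Between fractions, MDA5-protected minus RNase-only became 0.649 (sense peaks, area of 1000), -0.212 (sense peaks, equal numbers), -0.0282 (antisense peaks, equal numbers), -0.0469 (antisense peaks, no pair), -0.320 (sense area, area of 1000), -0.267 (sense area, equal numbers), and -0.0604 or -0.0487 (antisense area, no pair). MDA5-protected minus input became 0.0706 (antisense peaks, equal numbers). The sense share of peaks on pseudogenes, MDA5-protected minus RNase-only, became -29.0 with exons only (exact permutation p = 0.01), 3.05 with an area of 1000 and 0.702 with equal numbers.

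Same-numbered MDA5-protected and RNase-only libraries deviated together, but were paired only in the replicate block. Between genotypes the samples share only a number (r from -0.00949 to 0.0692 over 9 pairs). In the comparisons with input r ran from -0.0625 to 0.122, the highest for Mavs-/- RNase-only and input replicate 3. Digested libraries were also called against input, so these lists are not independent of the input libraries. With the replicate block, RNase-only minus input in antisense area stayed at 14.1 but no longer passed (exact permutation p = 0.0625), and the sense share of MDA5-protected against RNase-only at -5.32 passed (exact permutation p = 0.03125). It changed no other call.

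Leaving out 1 library at a time, genotype differences ran from -0.0869 to 0.0801 (sense peaks), -0.128 to 0.0288 (antisense peaks), -0.117 to 0.0144 (sense area) and -3.67 to 0.504 (antisense area) in MDA5-protected, from -1.22 to 9.86 (antisense area) in RNase-only, and from -0.00345 to 0.00623 (antisense peaks) and -0.474 to 0.335 (sense area) in input. MDA5-protected minus RNase-only ran from -0.0208 to 0.0578 for antisense peaks and from -7.39 to -3.32 for the sense share, which passed without Mavs-/- RNase-only replicate 3 (-7.31, exact permutation p = 0.05).

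Genotype-specific sense regions numbered 2 (MDA5-protected, Mavs-/-), 1 (RNase-only, Adar-/-; Mavs-/-), 4 (input, Adar-/-; Mavs-/-) and 5 (input, Mavs-/-) with equal numbers of peaks, 0, 0, 16 and 0 with an area of 1000 (RNase-only and input, Adar-/-; Mavs-/- before Mavs-/- in each), and 2 (RNase-only, Mavs-/-) with peaks up to 200 bp apart joined. With parents from names only, which leaves few parents, ribosomal protein copies were 0%, 11.3% and 12.6% and P450 copies 0%, 0% and 0.162% of the pseudogenes in MDA5-protected, RNase-only and input. The lists hold no read counts, which limits what an absent peak shows.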
